A study of Mus musculus with 6 samples.

Results

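The genes described are 41 genes of the lysosome, the acidic compartment in which a cell breaks down proteins, glycogen and lipids. They comprise 9 genes of cysteine cathepsins and legumain, 2 of an aspartic and a serine cathepsin, 6 of glycosidases and the sphingolipid activator, 7 of membrane and cholesterol export proteins, 16 of the proton pump, and that of the transcription factor Tfeb. They were chosen by symbol, and all 41 were found among the 13105 genes of the deposited table. The muscles are whole biceps of CD-1 mice in which C5-T1 of the brachial plexus had been excised on one side on postnatal day 5. Both biceps were taken 3 weeks later, on postnatal day 26, which gave 3 denervated muscles and, as controls, the 3 contralateral muscles of the same animals. Control and denervated replicates 1, 2 and 3 come from mice 1, 2 and 3. Each control muscle therefore grew in an injured animal, and no uninjured mouse was analysed here. No genotype beyond the strain is given in the labels. Whole muscle was used, so that each value sums over fibres and all other cells of the biceps.

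Lysosomal hydrolases are made in the endoplasmic reticulum, tagged with mannose 6-phosphate and carried to the lysosome by sorting receptors. The vacuolar proton pump acidifies the lumen: its V1 sector splits ATP outside the membrane, and its V0 sector carries protons through it. In muscle the lysosome is the end point of autophagy, and inherited loss of acid alpha-glucosidase or of LAMP2 causes a muscle disease with stored glycogen or autophagic vacuoles.

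The deposited values were read as log2(TPM + 1), where TPM is an abundance per transcript length, so that levels can be set side by side between genes. With no read counts in the files, the depth of each library is unknown here. The listed genes held 68.80% to 70.38% of the full TPM total in control libraries and 77.25% to 80.34% in denervated ones, and the median log2 fold change of all 12268 tested genes was 0.71. After scaling by the median of ratios, which holds the typical gene level between libraries, that median was 0.01. The scaling factors were 0.724, 0.789 and 0.697 for the control libraries and 1.60, 1.27 and 1.27 for the denervated ones. The words rose and fell are kept for genes that limma called in one direction on both scales, each at an adjusted p under 0.05. Values are TPM on the deposited scale unless called scaled. The tissue label held in the markers of muscle fibres (Acta1 at 7774, 8559 and 7608 TPM in control), and 4 of 4 markers of denervation rose. Denervated replicate 1 held the highest of the 3 denervated values for 33 of the 41 genes, and control replicate 2 the highest control value for 31. Both libraries also had the largest scaling factor of their group, 1.60 and 0.789, so that the typical gene stood highest there as well. The share of all genes highest in these libraries was not counted.

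In denervated biceps 7 of the 40 tested lysosomal genes rose and 0 fell. The 7 were the proteases Ctsl, Ctsz and Lgmn, the glycosidase subunit Hexa, the membrane protein Laptm4a, and the pump subunits Atp6v1a and Atp6v1e1. They make up 17.5% of the tested members, against 15.7% of all tested genes that rose and 4.5% that fell on both scales, so that the share of risers was near that of the transcriptome. The count came to 3 without mouse 1 and 4 without mouse 3, where 938 and 1005 of all tested genes rose, against 1922 with every library. On the deposited scale 33 members (82.5%) were called higher and 0 lower, against 69.9% of all genes called higher. All 40 log2 fold changes were positive there, with a median of 0.83. After scaling 7 members (17.5%) were called higher, against 15.7% of all genes, and 4 (10%) lower, against 18.6%. The scaled changes split into 20 positive and 20 negative, with a median of -0.0012. The 3 denervated values lay above all 3 control values for 32 members (80%) on the deposited scale, against 71.4% of all genes. After scaling they lay above for 13 members (32.5%), against 24.3%, and below for 9 (22.5%), against 24.4%. Naglu, an enzyme of heparan sulfate breakdown, stayed under the filter on low values and was not tested, with 0.290, 0.671 and 0.480 TPM in the control and 1.18, 1.42 and 0.636 TPM in the denervated libraries.

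**Figure D1:**
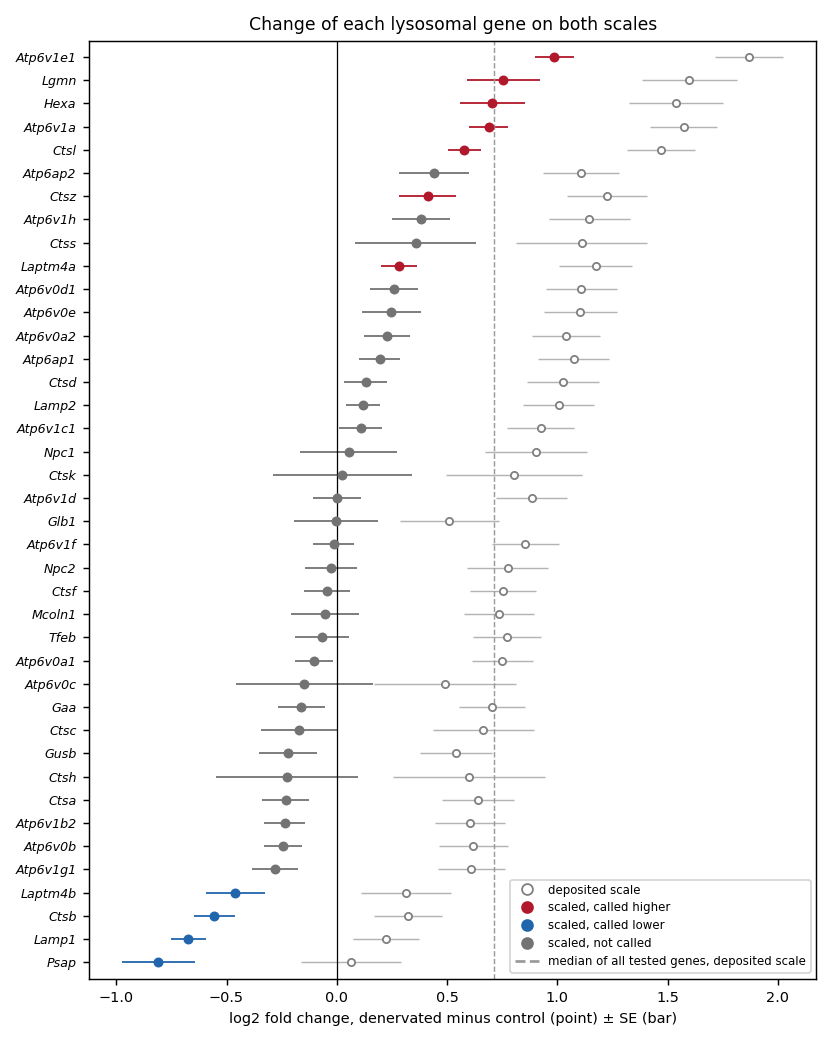
Log2 fold change, denervated over control, of the 40 tested lysosomal genes ordered by scaled change, on the deposited scale (open points) and after median-of-ratios scaling (filled points, red where called higher, blue where called lower, grey where not called), with bars of 1 standard error from limma and a dashed line at the median of all genes as deposited, 0.71. On the deposited scale every point lies above 0, whereas after scaling 20 lie above and 20 below 0.

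Summed over all 41 genes, the level was 989, 1109.6 and 966 TPM in the control and 2312, 1795 and 1789.8 TPM in the denervated libraries. The scaled sums were 1366, 1406 and 1386 in control and 1446, 1410.0 and 1406 in denervated muscle. The denervated sums lay far above the control sums as deposited, and within 1.059 times the same mouse's control sum after scaling. Levels differed widely among the genes. In control muscle 2 members, Lamp1 and Ctsd, averaged at least 100 TPM and 23 at least 10 TPM. Lamp1 was the most abundant in control, at 167 TPM, and Ctsd in denervated muscle, at 275 TPM. The 3 lowest tested members in control were Glb1, Atp6ap2 and Atp6v0c, at 1.04, 1.82 and 2.03 TPM.

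**Figure D2:**
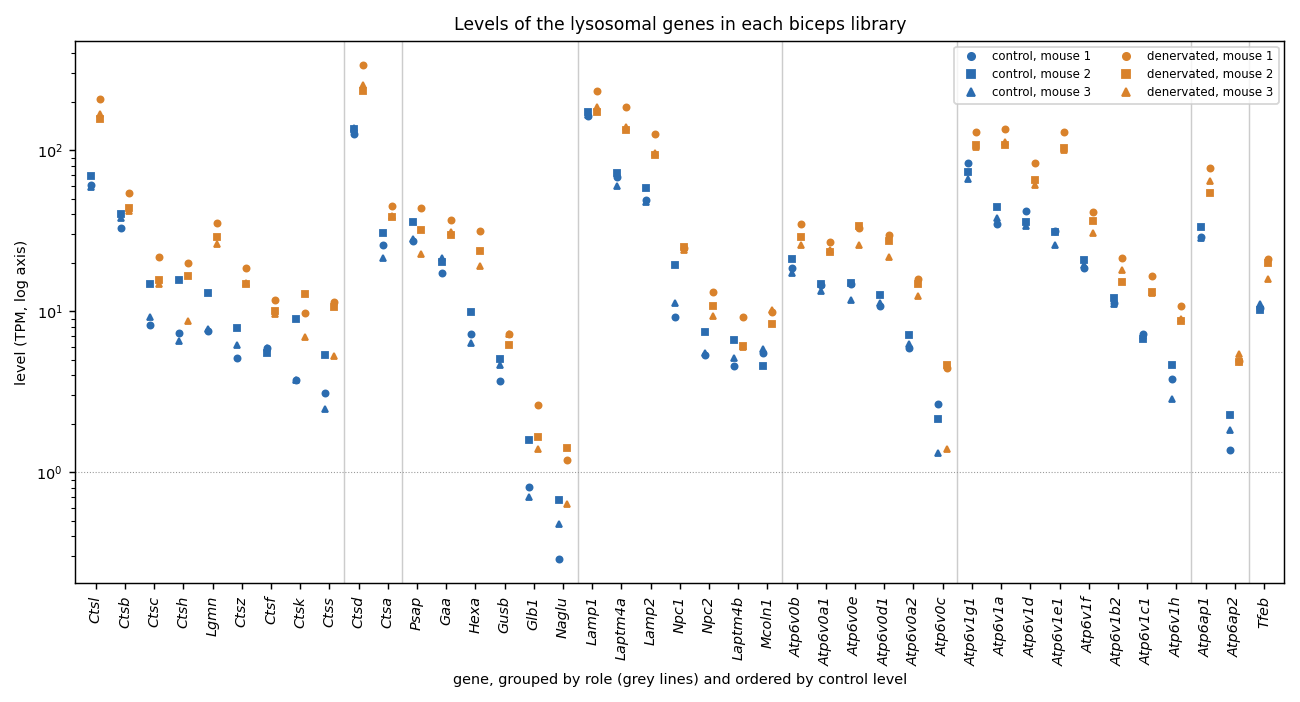
TPM of each of the 41 lysosomal genes in each of the 6 libraries, on a log axis, by role, with control and denervated libraries in separate colours and one marker shape per mouse. Lamp1 and Ctsd are the genes above 100 TPM in control, and Naglu the one whose control values all stay below 1 TPM.

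Tfeb encodes the factor that binds an E-box, CACGTG, before many lysosomal genes and activates them when it enters the nucleus (ENSMUSG00000023990, chr17:47737030-47792419, plus strand, GRCm38). Tfeb measured 10.5, 10.2 and 11.03 TPM in the control and 20.96, 19.9 and 15.7 TPM in the denervated libraries. The groups did not overlap as deposited, and they overlapped after scaling, at 14.5, 12.9 and 15.8 against 13.1, 15.6 and 12.4 scaled TPM. The test gave a log2 fold change of 0.77 ± 0.15 (SE; adjusted p = 0.00179), or -0.068 ± 0.12 after scaling (adjusted p = 0.714), so that Tfeb is called higher on the deposited scale alone. Its relatives Tfe3 and Mitf and the repressor Zkscan3 were likewise called on the deposited scale alone, with scaled log2 fold changes of 0.026, -0.21 and 0.024. The mRNA level carries no information on where the protein was.

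Promoter windows from RefSeq (GRCm38.p6), from 250 bases before to 50 bases after the start site, were found for 32 of the 41 genes. CACGTG, which reads the same on both strands, occurred in the window of 14 of the 32 (43.8%), against 2187 of 27025 genes with a window (8.09%). The longer TCACGTG on either strand, which contains the first motif, occurred in 12 of the 32 (37.5%), against 4.29% of all genes. Among the 7 genes that rose, 3 held CACGTG (Ctsl, Lgmn and Atp6v1a) and 4 did not. A gene with the motif that did not rise is Lamp1, whose window holds it 4 times, and Atp6v1e1 rose with no copy in the window. These 4 windows are printed 5′ to 3′ because they show both cases, with each CACGTG in capitals. A match is a description of the letters, not a measured binding site.
Ctsl, chr13:64370471-64370770, minus strand: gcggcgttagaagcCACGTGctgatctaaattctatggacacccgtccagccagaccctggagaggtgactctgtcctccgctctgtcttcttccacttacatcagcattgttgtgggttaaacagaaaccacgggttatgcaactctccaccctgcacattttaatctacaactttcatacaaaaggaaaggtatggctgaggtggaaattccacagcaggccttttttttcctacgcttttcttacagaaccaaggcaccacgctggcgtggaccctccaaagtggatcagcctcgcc
Atp6v1a, chr16:44139210-44139509, minus strand: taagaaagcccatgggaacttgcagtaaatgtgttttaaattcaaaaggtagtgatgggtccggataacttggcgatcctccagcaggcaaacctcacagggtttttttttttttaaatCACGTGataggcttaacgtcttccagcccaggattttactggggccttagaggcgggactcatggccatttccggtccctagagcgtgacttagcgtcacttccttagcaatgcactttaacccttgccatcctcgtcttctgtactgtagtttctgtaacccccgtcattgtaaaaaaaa
Lamp1, chr8:13158911-13159210, plus strand: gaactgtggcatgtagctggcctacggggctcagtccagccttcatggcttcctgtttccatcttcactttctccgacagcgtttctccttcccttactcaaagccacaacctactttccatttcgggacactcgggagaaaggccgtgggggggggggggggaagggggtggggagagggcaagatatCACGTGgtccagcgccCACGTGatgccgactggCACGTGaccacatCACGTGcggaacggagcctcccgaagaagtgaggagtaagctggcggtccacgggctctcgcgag
Atp6v1e1, chr6:120822649-120822948, minus strand: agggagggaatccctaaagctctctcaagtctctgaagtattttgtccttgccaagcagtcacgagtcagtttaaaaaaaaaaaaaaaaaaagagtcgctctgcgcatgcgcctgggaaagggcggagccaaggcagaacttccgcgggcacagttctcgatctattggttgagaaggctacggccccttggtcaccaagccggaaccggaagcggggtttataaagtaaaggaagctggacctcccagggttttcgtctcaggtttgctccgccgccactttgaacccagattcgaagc

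Of the 9 genes of cysteine cathepsins and legumain, 3 rose and 0 fell, against 15.7% and 4.5% of all tested genes. Ctsl encodes cathepsin L, an endopeptidase long known to be induced in wasting muscle (ENSMUSG00000021477, chr13:64359337-64370890, minus strand). Ctsl measured 60.8, 69.5 and 59.0 TPM in the control and 208, 156 and 168 TPM in the denervated libraries. Every denervated library lay well above every control library, on both scales. The test gave a log2 fold change of 1.47 ± 0.15 (SE; adjusted p = 7.87e-05), or 0.58 ± 0.08 after scaling (adjusted p = 0.00119). The scaled call of Ctsl held without each single library and without each mouse. In the GENCODE M21 transcripts 28.2% of the 31-mers of Ctsl occur in another gene, 25.8% in the antisense gene Gm47123, and reads of the latter cannot be told apart from those of Ctsl without strand, which makes the level of Ctsl uncertain.

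Lgmn encodes legumain, the asparaginyl endopeptidase that also cleaves cathepsins into their mature chains (ENSMUSG00000021190, chr12:102394084-102439813, minus strand). Its values were 7.53, 12.99 and 7.79 TPM in the control and 35.3, 28.8 and 26.0 TPM in the denervated biceps, with control replicate 2 above the other controls and no overlap between the groups. Lgmn showed a log2 fold change of 1.60 ± 0.21 (SE; adjusted p = 2.62e-04), or 0.76 ± 0.17 after scaling (adjusted p = 0.0116). Its scaled call was lost without mouse 1 (adjusted p = 0.101) or mouse 3 (adjusted p = 0.0857). Ctsz, the carboxypeptidase cathepsin Z, measured 5.09, 7.88 and 6.20 TPM in the control and 18.6, 14.8 and 15.1 TPM in the denervated biceps, again without overlap. Its change was a log2 fold change of 1.23 ± 0.18 (SE; adjusted p = 4.00e-04), or 0.41 ± 0.13 after scaling (adjusted p = 0.0459), close to the threshold, and the scaled call was lost when any one library other than control replicate 2 was left out (largest adjusted p = 0.113), without each mouse, with no filter on low values (adjusted p = 0.0515) and without limma's mean-variance trend (0.0518).

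Ctsb, cathepsin B, which cuts both inside a chain and at its end, was called lower only relative to the typical gene (ENSMUSG00000021939, chr14:63122462-63145923, plus strand). It measured 32.8, 40.2 and 38.0 TPM in the control and 54.1, 43.9 and 42.1 TPM in the denervated biceps, higher in every denervated library. Those denervated values were 1.647, 1.092 and 1.107 times the same mouse's control. Scaled, the values were 45.3, 50.9 and 54.6 against 33.8, 34.5 and 33.1, and every denervated library lay lower. Ctsb had a log2 fold change of 0.32 ± 0.15 (SE; adjusted p = 0.0789), or -0.56 ± 0.09 after scaling (adjusted p = 0.00351), and that scaled call was lost without mouse 3 (adjusted p = 0.0544). The ratio of Ctsl to Ctsb, which does not depend on the scaling, was 1.71 ± 0.151 in control and 3.80 ± 0.224 in denervated muscle (mean ± SD, n = 3). All ratios of a gene pair given here and below are a description with no test, since the pairs were chosen after the values had been seen and a pair of genes with unlike changes has to differ.

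The remaining 5 cysteine cathepsins were called on the deposited scale or on neither. Ctsf and Ctsc, the dipeptidyl peptidase that activates granule proteases, had deposited log2 fold changes of 0.75 and 0.66 and scaled ones of -0.043 and -0.17. Ctss, which processes antigen in phagocytes, and Ctsk, the collagen-degrading cathepsin best known from osteoclasts, were called higher as deposited (log2 fold changes 1.11 and 0.80) but not after scaling (0.36 and 0.026), and the groups overlapped on both scales. Ctsk and Ctss are neighbours on chromosome 3, 17424 bases apart. Ctsh, an aminopeptidase, was called on neither scale, with 7.29, 15.5 and 6.49 TPM in the control and 19.9, 16.5 and 8.74 TPM in the denervated biceps. Control replicate 2 was the highest control for Ctsc, Ctsh, Ctsk and Ctss. With mouse as a block, Ctsh was called higher as deposited (adjusted p = 0.0335), as it was without control replicate 2 or denervated replicate 3 (adjusted p = 0.0123 and 0.0246). The deposited calls of Ctsc, Ctsk and Ctss were lost without single libraries: that of Ctsc without control replicate 1 or 3 or denervated replicate 1 (largest adjusted p = 0.102), that of Ctsk without any one of 4 libraries, control replicates 1 and 3 and denervated replicates 1 and 2 (0.129), and that of Ctss without denervated replicate 1 (0.0537).

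Markers of other cell types also varied between libraries and groups. The 13 listed macrophage markers of 15 (Adgre1 and Fcgr1 are not among the listed genes) summed to 83.2, 196 and 98.9 TPM in the control and 269, 249.7 and 164 TPM in the denervated biceps, with 1 of 13, Mpeg1, called higher on both scales. Among the control libraries replicate 2 was the highest. It was also the highest control in 31 of the 41 lysosomal genes, among them Ctsh, Ctss and Ctsl but not Ctsd or Ctsf. This library had the largest scaling factor of the controls, 0.789, and the share of all genes highest there was not counted. Scaled, the sums ran from 115 to 248.7 in control and from 129 to 196 in denervated muscle, and the groups overlapped. The 9 fibroblast markers, of which 0 rose or fell, summed to 610.0, 1538 and 763 TPM in the control and 1912, 2115 and 1061 TPM in the denervated biceps. Of 7 osteoclast markers the table lists Acp5 alone, which rose. Of 8 markers of other leukocytes it lists 2, which went in opposite directions after scaling. S100a8 rose from 3.19 ± 1.02 to 42.8 ± 15.6 TPM (scaled log2 fold change 2.56). S100a9 was called lower after scaling alone (-0.73). Among the other marker lists, 3 of 5 adipocyte and 2 of 4 satellite cell genes rose, and 3 of 4 tested Schwann cell and 3 of 10 myofibre genes fell. All 6 endothelial and all 3 erythroid genes were called lower after scaling alone. For comparison, 15.7% of all tested genes rose, 4.5% fell and 18.6% were called lower after scaling. The adipocyte markers summed to 198, 299 and 280.1 TPM in the control and 665, 405 and 851 TPM in the denervated biceps, and those of Schwann cells to 98.7, 158 and 71.0 TPM and 60.2, 58.7 and 41.5 TPM. Without control replicate 2 the scaled log2 fold change of Ctsh was 0.089 in place of -0.23, and that of Ctsc 0.014 in place of -0.17. The part of these cells in the values of the lysosomal genes was not tested, and in whole muscle fewer cells of a type and less RNA per cell cannot be told apart.

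Ctsd and Ctsa did not rise on both scales. Ctsd, the aspartic protease cathepsin D, is the most abundant protease of the set. Its values were 126, 136 and 138 TPM in the control and 337, 234 and 255 TPM in the denervated biceps, and 174, 172 and 198 against 211, 184 and 200.4 after scaling. The deposited groups were separate and the scaled groups overlapped. Ctsd showed a log2 fold change of 1.03 ± 0.16 (SE; adjusted p = 5.54e-04), or 0.13 ± 0.10 after scaling (adjusted p = 0.344). The overlapping gene Gm49369 holds 33.2% of the 31-mers of Ctsd, which leaves its level uncertain. Ctsa, the carboxypeptidase that also protects beta-galactosidase and neuraminidase, measured 25.9 ± 4.63 TPM in the control and 40.7 ± 3.55 TPM in the denervated biceps, with a scaled log2 fold change of -0.23 (adjusted p = 0.139) and all scaled denervated values below the controls.

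Within the summed TPM of the 10 cathepsin genes, without legumain, Ctsl took 20.99% ± 0.76 in control and 28.76% ± 0.90 in denervated muscle (mean ± SD, n = 3). Ctsb took 12.30% ± 0.70 and 7.58% ± 0.32. Ctsd held the largest share in both, at 44.42% ± 3.47 and 44.39% ± 1.82. The shares of Ctsl and Ctsb did not overlap between the groups, and those of Ctsd did.

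**Figure D3:**
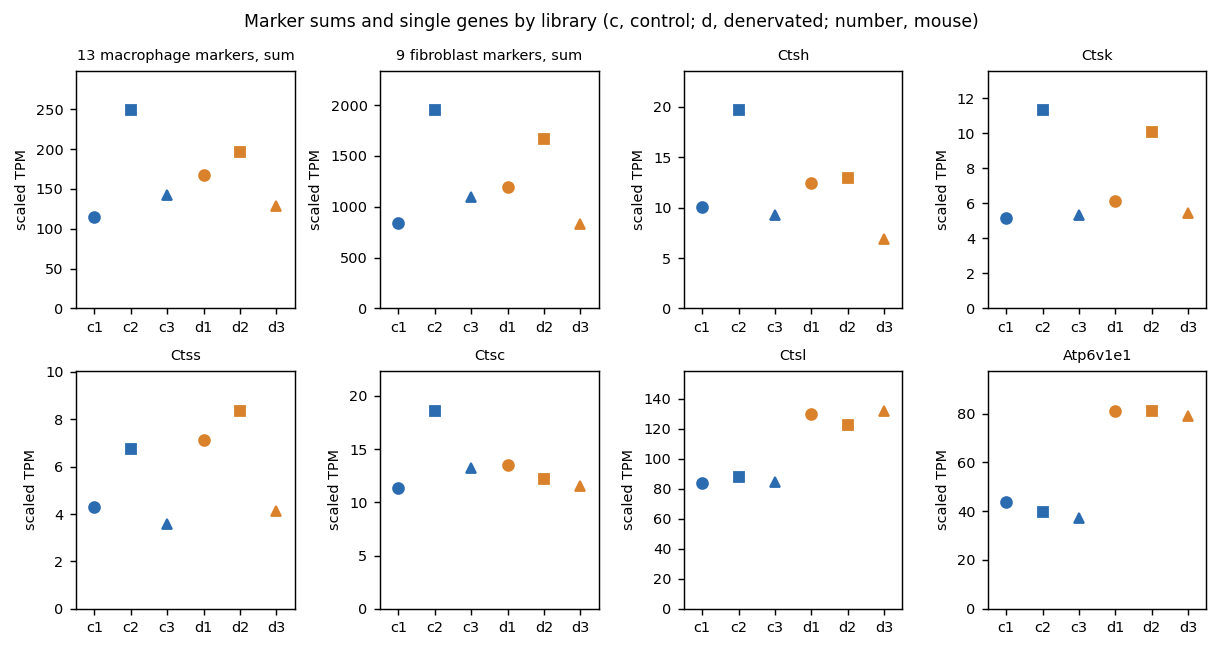
Scaled TPM in each of the 6 libraries (c, control, blue; d, denervated, orange; 1 point per library, 1 marker shape per mouse) of the summed macrophage and fibroblast markers, of 5 cathepsin genes and of Atp6v1e1. Control replicate 2 is the highest control in both sums and in Ctsh, Ctsk, Ctss, Ctsc and, by a small margin, Ctsl. Of the cathepsins not shown, Ctsa and Ctsz were also highest there after scaling. Scaled Ctsb was highest in control replicate 3, and scaled Ctsd and Ctsf were lowest in control replicate 2. The scaled values of Ctsl and Atp6v1e1 lie close together within each group.

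Among the glycosidases and the sphingolipid activator 1 of 5 tested genes rose and 0 fell, against 15.7% and 4.5% of all tested genes. Hexa encodes the alpha subunit of beta-hexosaminidase, which degrades the ganglioside GM2 (ENSMUSG00000025232, chr9:59539540-59565109, plus strand). Hexa measured 7.24, 9.86 and 6.34 TPM in the control and 31.5, 23.6 and 19.1 TPM in the denervated biceps. All denervated libraries lay above all controls on both scales. The test gave a log2 fold change of 1.54 ± 0.21 (SE; adjusted p = 3.05e-04), or 0.70 ± 0.15 after scaling (adjusted p = 0.00971), and the scaled call was lost without mouse 1 (adjusted p = 0.103). The gene Tmem202 holds 11.4% of the 31-mers of Hexa.

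Psap encodes prosaposin, the precursor of the saposins that present sphingolipids to hydrolases (ENSMUSG00000004207, chr10:60277627-60302597, plus strand). Its values were 27.3, 35.6 and 28.3 TPM in the control and 43.5, 32.1 and 22.5 TPM in the denervated biceps, which overlap. Scaled, they were 37.7, 45.1 and 40.6 against 27.2, 25.2 and 17.7, with every denervated library below every control. Psap had a log2 fold change of 0.064 ± 0.23 (SE; adjusted p = 0.803), or -0.81 ± 0.16 after scaling (adjusted p = 0.00848). This was the lowest scaled value among the members, and its call held without each single library and without each mouse. On the deposited scale the sign of Psap turned without denervated replicate 1 (-0.16) or control replicate 1 (-0.0064). The ratio of Hexa to Psap was 0.255 ± 0.0276 in control and 0.770 ± 0.0694 in denervated muscle, without overlap.

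Gaa, the acid alpha-glucosidase that breaks down glycogen and is missing in Pompe disease, measured 17.3, 20.3 and 21.3 TPM in the control and 36.8, 30.0 and 31.2 TPM in the denervated biceps. The groups did not overlap as deposited and overlapped after scaling. Gaa had a log2 fold change of 0.71 ± 0.15 (SE; adjusted p = 0.00244), or -0.16 ± 0.11 after scaling (adjusted p = 0.297). Gusb, beta-glucuronidase, was called higher as deposited (log2 fold change 0.54) and had a scaled value of -0.22. The deposited call of Gusb was lost without control replicate 1 (adjusted p = 0.0751). Glb1, beta-galactosidase, lay at 0.810, 1.59 and 0.701 TPM in the control and 2.63, 1.66 and 1.40 TPM in the denervated biceps and was called on neither scale. It was called higher as deposited with mouse as a block (adjusted p = 0.0486), without control replicate 2 (0.0169) and without denervated replicate 3 (0.0403).

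Of the 7 membrane and cholesterol export proteins 1 rose and 0 fell, and 2 were called lower after scaling alone. Of all tested genes 15.7% rose, 4.5% fell and 18.6% were called lower after scaling. Lamp1 and Lamp2 encode the main glycoproteins of the lysosomal membrane, and LAMP2 also takes part in the fusion of autophagosomes. Lamp1 (ENSMUSG00000031447, chr8:13159161-13175338, plus strand) measured 163, 174 and 165 TPM in the control and 233, 172 and 185 TPM in the denervated biceps, which overlap. Scaled, it was 225, 220.1 and 236 against 146, 135 and 146, with every denervated library lower. The test gave a log2 fold change of 0.22 ± 0.15 (SE; adjusted p = 0.198), or -0.67 ± 0.08 after scaling (adjusted p = 7.06e-04), and the scaled call held without each single library and each mouse.

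Lamp2 measured 48.8, 58.0 and 47.8 TPM in the control and 126, 93.3 and 96.1 TPM in the denervated biceps, with no overlap as deposited. After scaling its groups overlapped, at 67.4, 73.4 and 68.6 against 78.9, 73.3 and 75.5. Lamp2 had a log2 fold change of 1.01 ± 0.16 (SE; adjusted p = 6.00e-04), or 0.12 ± 0.08 after scaling (adjusted p = 0.292). The ratio of Lamp2 to Lamp1 went from 0.308 ± 0.0228 to 0.535 ± 0.0141, and that of Ctsd to Lamp1 from 0.796 ± 0.0360 to 1.39 ± 0.0456 (mean ± SD, n = 3), each without overlap. Ctsd thus stood below Lamp1 in all 3 control libraries and above it in all 3 denervated ones.

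Laptm4a and Laptm4b encode related small membrane proteins of late endosomes and lysosomes. Laptm4a (ENSMUSG00000020585, chr12:8921664-8938742, plus strand) measured 67.9, 72.4 and 59.7 TPM in the control and 187, 133 and 139 TPM in the denervated biceps, without overlap on either scale. Its change was a log2 fold change of 1.17 ± 0.17 (SE; adjusted p = 3.21e-04), or 0.28 ± 0.08 after scaling (adjusted p = 0.0367), the smallest scaled change among the 7 risers. That call was lost without limma's mean-variance trend (adjusted p = 0.065) and when any one of the 6 libraries was left out (adjusted p from 0.0559 to 0.122). Laptm4b measured 4.59, 6.64 and 5.11 TPM in the control and 9.24, 6.04 and 5.96 TPM in the denervated biceps, which overlap, and all its scaled denervated values lay below the controls. Laptm4b had a log2 fold change of 0.31 ± 0.20 (SE; adjusted p = 0.18), or -0.46 ± 0.13 after scaling (adjusted p = 0.0342), and the scaled call was lost with mouse as a block (adjusted p = 0.0588) and without replicate 2 or 3 of either group (largest adjusted p = 0.104). The ratio of Laptm4a to Laptm4b was 12.5 ± 2.06 in control and 21.8 ± 1.56 in denervated muscle.

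Mcoln1, the lysosomal calcium channel, and Npc1 and Npc2, which pass cholesterol out of the lysosome, were called higher on the deposited scale alone. Their deposited log2 fold changes were 0.73, 0.90 and 0.77, and the scaled ones -0.054, 0.054 and -0.026. Npc1 measured 9.27, 19.3 and 11.3 TPM in control, with replicate 2 again the highest, and 24.7, 25.0 and 24.0 TPM in denervated muscle. The ratio of Npc1 to Npc2 overlapped between the groups, at 2.13 ± 0.4499 and 2.25 ± 0.359.

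Of the 16 pump genes 2 rose, both of them in the V1 sector, and 0 fell, against 15.7% and 4.5% of all tested genes. On the deposited scale 15 of the 16 were called higher, against 69.9% of all tested genes. The 8 V1 subunits covered a wide range in control muscle, from 3.76 TPM for Atp6v1h to 74.5 TPM for Atp6v1g1. Atp6v1e1 encodes the E subunit of the peripheral stalks that hold the catalytic head in place (ENSMUSG00000019210, chr6:120794305-120822793, minus strand). It measured 31.7, 31.3 and 25.9 TPM in the control and 129, 103 and 101 TPM in the denervated biceps. Each denervated library held over 3 times the level of the same mouse's control, and the scaled values, 43.8, 39.6 and 37.1 against 80.9, 81.3 and 79.2, stayed apart. The test gave a log2 fold change of 1.87 ± 0.15 (SE; adjusted p = 2.37e-05), or 0.99 ± 0.09 after scaling (adjusted p = 1.89e-04), the largest change of the 40 genes on both scales.

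Atp6v1a encodes the catalytic A subunit that splits ATP (ENSMUSG00000052459, chr16:44085402-44139705, minus strand). Atp6v1a measured 35.1, 44.4 and 37.9 TPM in the control and 135, 108 and 113 TPM in the denervated biceps, and 48.4, 56.3 and 54.3 against 84.3, 84.7 and 88.7 after scaling. The groups were far apart on both scales. The test gave a log2 fold change of 1.57 ± 0.15 (SE; adjusted p = 5.41e-05), or 0.69 ± 0.09 after scaling (adjusted p = 9.88e-04). For both genes the scaled call held without each single library and without each mouse.

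The direct partners of these subunits in the V1 sector did not rise. Atp6v1g1, the G subunit that pairs with E in the stalk and the most abundant pump gene in control muscle, measured 83.9, 73.7 and 65.8 TPM in the control and 129.6, 108 and 106 TPM in the denervated biceps. Scaled, it was 116, 93.4 and 94.5 against 81.1, 84.5 and 82.9, with every denervated library lower, and a scaled log2 fold change of -0.28 (adjusted p = 0.0769). The pseudogene Gm13453 holds 24.0% of its 31-mers, which leaves its level uncertain. Atp6v1b2, the B subunit that alternates with A in the head, measured 11.5 ± 0.515 TPM in the control and 18.2 ± 3.07 TPM in the denervated biceps, with a scaled value of -0.24 (adjusted p = 0.0929). Atp6v1d and Atp6v1f, which form the central rotor, had scaled log2 fold changes of 0.00057 and -0.013. Atp6v1c1 and Atp6v1h, the C and H subunits that govern the union of the sectors, had 0.11 and 0.38, and for both every scaled denervated value lay above the controls. Atp6v1h was called higher after scaling without control replicate 2 (adjusted p = 0.0333) and with a filter at 5 TPM (0.0408).

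Ratios between subunits, which do not depend on the scaling, were taken for pairs chosen in the same way. Atp6v1e1 stood at 0.398 ± 0.0239 of Atp6v1g1 in control and at 0.972 ± 0.0229 in denervated muscle (mean ± SD, n = 3). Atp6v1a stood at 3.399 ± 0.290 times Atp6v1b2 in control and 6.57 ± 0.454 times in denervated muscle. Neither ratio overlapped between the groups. The rotor pair kept its ratio, with Atp6v1d at 1.91 ± 0.302 and 1.92 ± 0.109 times Atp6v1f, and the groups overlapped.

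**Figure D4:**
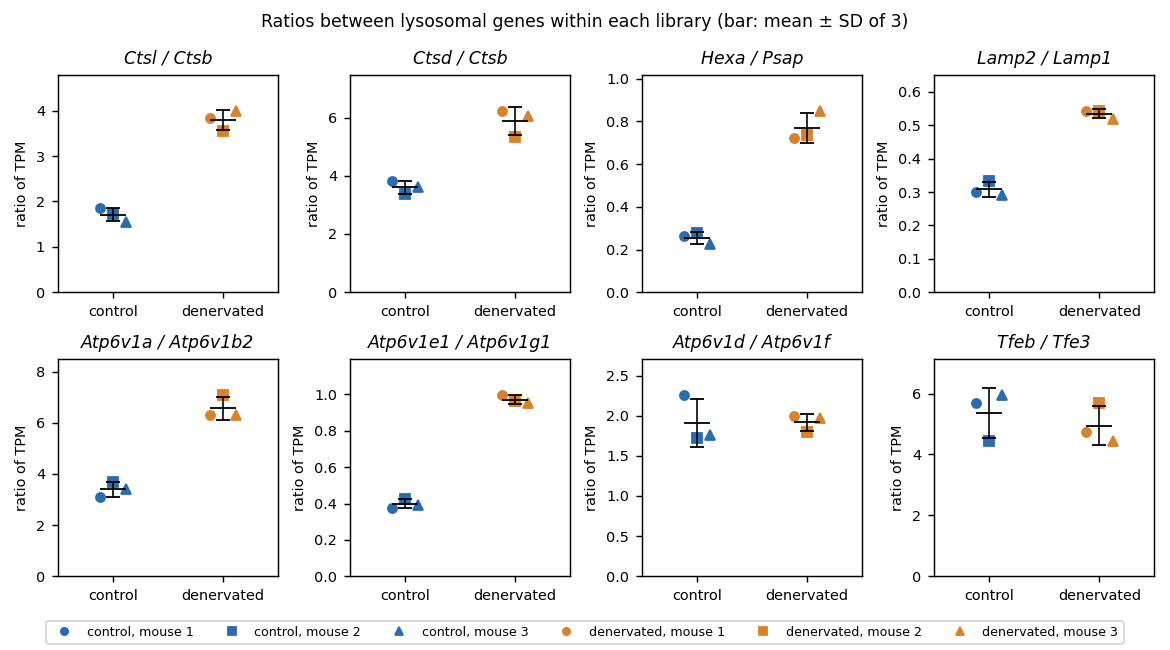
Ratio of TPM between 2 genes within each of the 6 libraries, by group, with one marker shape per mouse and bars for the mean ± SD of 3. Ctsl over Ctsb, Hexa over Psap, Lamp2 over Lamp1, Atp6v1a over Atp6v1b2 and Atp6v1e1 over Atp6v1g1 are higher in every denervated library, whereas Atp6v1d over Atp6v1f and Tfeb over Tfe3 overlap.

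The 6 V0 genes held 0 that rose or fell, and 5 were called higher as deposited, against 69.9% of all tested genes. Atp6v0b, a subunit of the proton-carrying ring and the most abundant V0 gene in control muscle, measured 18.4, 20.98 and 17.3 TPM in the control and 34.8, 28.9 and 25.6 TPM in the denervated biceps, with a scaled log2 fold change of -0.24 (adjusted p = 0.0649). Its deposited groups were apart, and scaled the denervated values all lay lower. Atp6v0c, the main ring subunit, was listed far lower, at 2.64, 2.14 and 1.32 TPM in the control and 4.44, 4.63 and 1.40 TPM in the denervated biceps, which overlap. It was called on neither scale, or higher as deposited with mouse as a block (adjusted p = 0.0481) or without denervated replicate 3 (0.00687), and other genes hold 11.9% of its 31-mers.

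The a subunits, which form the proton half-channels and steer the pump to its membrane, differed in direction after scaling. Atp6v0a1 had a scaled log2 fold change of -0.10 and Atp6v0a2 of 0.23, neither called, with the scaled denervated values of the former below and of the latter above the controls. Their ratio went from 2.22 ± 0.217 to 1.73 ± 0.160 without overlap. Atp6v0d1, which couples the ring to the rotor, and Atp6v0e had scaled values of 0.26 and 0.25, neither called. Atp6ap1, an accessory protein needed for pump assembly, measured 29.1, 33.2 and 28.5 TPM in the control and 77.2, 54.2 and 64.7 TPM in the denervated biceps. Every denervated library was higher, also after scaling, but the scaled log2 fold change was 0.19 (adjusted p = 0.149). Atp6ap2, the prorenin receptor, had a log2 fold change of 1.11 ± 0.17 (SE; adjusted p = 5.22e-04), or 0.44 ± 0.16 after scaling (adjusted p = 0.0718), and was called after scaling with mouse as a block (adjusted p = 0.0384).

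By role, the summed deposited TPM in denervated over control muscle was 2.214 for the V1 sector and 2.195 for the cysteine cathepsins with legumain. It was 2.193 for the pump accessory genes, 1.987 for Ctsa with Ctsd, 1.931 for V0 and 1.787 for Tfeb. It was 1.607 for the membrane proteins and 1.567 for the glycosidases with Psap. In the same order, the scaled ratios were 1.18, 1.173, 1.17, 1.054, 1.034, 0.9519, 0.8553 and 0.8326. After scaling the V1 sums were 322, 291 and 292 in control and 355, 359.8 and 354 in denervated muscle, and all denervated sums were higher. The V1 genes did not move together. Scaled group means went from 53.0 to 85.9 for Atp6v1a and from 40.2 to 80.4 for Atp6v1e1. They went from 101 to 82.8 for Atp6v1g1, 15.6 to 13.1 for Atp6v1b2, 50.5 to 50.3 for Atp6v1d and 26.5 to 26.3 for Atp6v1f. Atp6v1c1 went from 9.52 to 10.3 and Atp6v1h from 5.07 to 6.85. The membrane protein sums were 421, 433 and 430.1 against 377, 352 and 369 scaled TPM, and all denervated sums were lower. Lamp1 held the largest part of the latter sums.

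The other genes of the lysosome were counted in the same way. Of 32 tested further hydrolases and cofactors 5 rose (15.6%, against 15.7% of all tested genes) and 0 fell. After scaling 4 were called lower, against 18.6% of all tested genes. Of these 4, Asah1 and Tpp1 were called higher as deposited (adjusted p = 0.0484 and 0.0298), so that their calls reversed between the scales. The risers with the largest scaled change were Acp5, the tartrate-resistant acid phosphatase (from 2.15 ± 0.968 to 10.02 ± 0.412 TPM; scaled log2 fold change 1.15), the deoxyribonuclease Dnase2a (0.67) and Ppt1, the thioesterase lost in an infantile storage disease (0.67). Of 22 further membrane proteins 3 rose (13.6%), led by the tetraspanin Cd63, which went from 87.5 ± 11.5 to 278 ± 28.7 TPM, and joined by Slc38a9, the arginine sensor, and Slc17a5, the sialic acid exporter. A further 3 of the 22, Ostm1, Sidt2 and Tpcn1, were called lower after scaling alone, where 18.6% of all tested genes were called lower. Their scaled log2 fold changes were -0.90, -0.62 and -0.55, against 0.76 for Cd63. Of 8 further pump subunits and assembly factors 1 rose (12.5%, against 15.7% of all tested genes). It was Dmxl2, a factor that helps V1 and V0 to join (scaled 0.90).

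The route that brings hydrolases to the lysosome held 4 rises among 15 genes (26.7%, against 15.7% of all tested genes) and 0 falls. Gga2, an adaptor that gathers the receptors at the Golgi, went from 3.13, 3.93 and 3.88 TPM in control to 19.7, 14.3 and 13.8 TPM in denervated muscle (scaled log2 fold change 1.07, adjusted p = 4.65e-04). The sorting receptor Sort1 measured 8.26, 7.72 and 7.64 TPM in the control and 34.7, 28.3 and 25.0 TPM in the denervated biceps (scaled 0.92, adjusted p = 4.58e-04). Igf2r, the large mannose 6-phosphate receptor, measured 18.7, 19.7 and 26.0 TPM in the control and 77.6, 52.2 and 64.0 TPM in the denervated biceps (scaled 0.66, adjusted p = 0.0196). For these 3 genes no denervated value overlapped the controls on either scale. The fourth riser was Cln6, named after its values were seen. Gnptg, a subunit of the enzyme that adds the tag, was called in opposite directions, higher as deposited (0.39, adjusted p = 0.0481) and lower after scaling (-0.39, adjusted p = 0.0209), and was also named after its values were seen.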

How the data were processed

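RNA was measured in 6 libraries, 3 denervated and 3 control biceps. Per the labels' protocols, total RNA was amplified, prepared with Nextera XT and read in pairs of 75 bases. The submitters' processing notes name kallisto 0.42.1 and the mm10 build. The log2 values the authors deposited name no unit and were read as log2(TPM + 1), with kallisto's TPM. The authors' deposited p-values, fold score and log2 fold changes were not used here.

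Genes with TPM of at least 1 in at least 3 libraries were tested with limma 3.58.1 in R 4.3.3 (empirical Bayes with trend, pseudocount 1), adjusted by Benjamini-Hochberg over all 12268 genes, as deposited and again after median-of-ratios scaling. The fits were tested on simulated data. Fold changes on the log2(TPM + 1) scale understate those of low genes. The members and lists were chosen with earlier results of these data known. Values in every library are given for members that rose or fell, the most abundant of each role, and Tfeb, Ctsl, Ctsb, Ctsd, Lamp1, Lamp2 and Gaa. From other lists up to 3 called genes with the largest scaled change are named. Further values were chosen after they were seen. The p-values measure the spread between 3 muscles a group, both groups being from the same 3 mice. The main fits treated the muscles as independent and did not use the pairing. Labels pair the muscles by mouse, and same-mouse deviations from the group means correlated across genes at 0.312, 0.183 and 0.411. Alternatives were the pseudocount, the filter, the trend, the mouse as a block, other scalings, and leaving out each library or mouse.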

Additional observations from a re-analysis of the deposited data

How the results depend on the processing

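No member was called lower on the deposited scale or on both scales under any alternative run. The count of members that rose on both scales was 3 to 7 when single libraries or mice were left out, and the scaled higher count likewise 3 to 7, lowest without mouse 1. The scaled lower count was 2 to 4, lowest without mouse 3, and the deposited higher count 27 to 36. Quantile normalization gave 11 of 40 members higher, scaled and on both scales, where 2168 of all 12268 genes rose, so that the members' share then stood further above that of all genes. Without limma's trend 5 members rose, Ctsz and Laptm4a being lost, where 1924 of all 12268 genes rose. A filter at 5 TPM gave 8, Atp6v1h being added, where 1574 of the 7218 genes then tested rose. With the mouse as a block 8 members rose on both scales, where 1988 of all 12268 genes rose. On the deposited scale 36 members were then called higher, and after scaling 3 lower. The matching counts of all genes are not given here. The block changed 5 calls, named in the results, and no other. Quantile normalization added Ctsd, Lamp2, Atp6v0d1 and Atp6ap1 to the scaled calls. Leaving out both libraries of a mouse also ended the deposited calls of Ctsa without mouse 1 or 3, Npc1 without mouse 1 and Atp6v1b2 without mouse 3. The scaled calls of Ctsl, Atp6v1a and Atp6v1e1 held in every fit that left out a library or a mouse. Scaled log2 fold changes near 0 turned sign with single libraries or mice left out; their ranges over these fits were -0.37 to 0.024 for Ctsc, -0.15 to 0.012 for Ctsf, -0.48 to 0.089 for Ctsh, -0.21 to 0.35 for Ctsk, -0.16 to 0.19 for Glb1, -0.19 to 0.052 for Mcoln1, -0.15 to 0.29 for Npc1, -0.11 to 0.057 for Npc2, -0.38 to 0.18 for Atp6v0c, -0.095 to 0.10 for Atp6v1d, -0.084 to 0.073 for Atp6v1f and -0.24 to 0.064 for Tfeb. Psap ranged from -0.23 to 0.30 as deposited. Signs also turned for Glb1 with a pseudocount of 0.1 (0.011), Atp6v1d with no filter (-0.0078), Atp6v1f with a filter at 5 TPM (0.0089), Psap with listed genes rescaled to one sum (-0.11), and Npc2, Atp6v0a1 and Atp6v1f with quantile normalization (0.0034, 0.013 and 0.11). The cause was not tested. Within mouse 1 the deposited denervated over control sums were 2.338 for all members and 2.904 for the cysteine cathepsins with legumain. They were 2.519 for Ctsa with Ctsd, 2.167 for the glycosidases with Psap, 1.979 for the membrane proteins and 2.69 for the pump accessory genes. In the same order, the scaled values were 1.059, 1.315, 1.141, 0.9813, 0.8957 and 1.218. Within mouse 2 the deposited values were 1.617, 1.712, 1.311 and 1.662 for all members, cysteine cathepsins, membrane proteins and accessory genes. Scaled, these were 1.003, 1.061, 0.8131 and 1.031. Within mouse 3 Tfeb stood at 1.427 as deposited and 0.7816 after scaling. The limits are 3 mice, which allow no exact permutation test of one gene below a two-sided p of 0.1, unknown depth per value, and a transcriptome-wide shift between groups that makes the deposited and scaled calls differ. RNA per muscle was not analysed here, so that neither scale gives amounts per fibre.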

Other observations

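Of 9 genes in the list of cathepsin inhibitors 5 were measured, of which 3 rose (60% of those measured, against 15.7% of all tested genes) and 0 fell. Cstb, stefin B, an inhibitor of cysteine cathepsins in the cytosol, measured 20.1, 17.0 and 15.9 TPM in the control and 85.7, 53.1 and 61.8 TPM in the denervated biceps (scaled log2 fold change 0.97, adjusted p = 0.00141). Serpinb6a, an intracellular serpin best known for serine proteases, measured 28.8, 48.7 and 27.4 TPM and 274, 211 and 276 TPM (scaled 1.98, adjusted p = 3.05e-04). Cd74, the invariant chain of class II antigen presentation, measured 12.2, 22.7 and 11.8 TPM and 103, 69.7 and 69.0 TPM (scaled 1.47, adjusted p = 0.00155). The denervated values of these 3 genes lay above all controls on both scales. The most abundant inhibitor, the secreted Cst3, had a log2 fold change of 0.78 ± 0.19 (SE; adjusted p = 0.00525), or -0.12 ± 0.15 after scaling (adjusted p = 0.588).

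Among 11 genes of the scaffold that holds mTORC1 on the lysosome 1 rose (9.09%, against 15.7% of all tested genes), the GTPase Rragc (scaled 0.32). After scaling 4 were called lower, against 18.6% of all tested genes. Of these, Lamtor1, named after its values were seen, was called higher as deposited (adjusted p = 0.0361). Rragd, a relative of Rragc, measured 48.0, 50.1 and 36.5 TPM in the control and 45.8, 29.7 and 29.1 TPM in the denervated biceps, which overlap, with a log2 fold change of -0.37 ± 0.20 (SE; adjusted p = 0.121), or -1.25 ± 0.13 after scaling (adjusted p = 3.78e-04). Lamtor3 and Fnip1 followed, both with scaled log2 fold changes of -0.55.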
